A study of Sus scrofa with 7 samples.

Results

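Genes for cytokines, chemokines, their receptors, Toll-like receptors and the NF-kB pathway were followed in the hypothalamus of piglets after antibiotics had been infused into the distal ileum. Rows of the authors' gene table were taken by gene name, as those whose name begins as an interleukin (IL with a digit), a CC or CXC chemokine or its receptor, a Toll-like receptor (TLR), TNF, NFKB, TRAF, IRAK, IKBK or SOCS, or equals REL, RELA, RELB or MYD88. The rule used no measured value. It found 163 of 16991 rows, and the authors had tested 103 of these 163 between the groups. The 163 rows carried 152 names, and 11 names had more than 1 row.

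The animals were Duroc x Landrace x Large White piglets of 45 postnatal days, all fitted with a T-cannula in the distal ileum. The control group (4 libraries) received 10 mL of 0.9% NaCl through it. The antibiotic group (3 libraries) received 10 mL of saline that held 3 antibiotics, with daily doses per kg of 150 mg ampicillin, 4 mg gentamicin and 30 mg metronidazole. Of the 12 piglets randomised, 7 are represented here, and RNA came from undissociated hypothalamus, so every value below is an average over its neurons, glia, vessels and blood.

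Cytokines and chemokines are secreted signals that carry messages between immune cells and, in the brain, between microglia, astrocytes, vessels and neurons. Toll-like receptors recognise parts of microbes and pass the signal through the adaptor MYD88, the IRAK kinases and TRAF6. Their signal and that of TNF receptors converge on the IKK kinases, which release NF-kB dimers from their inhibitors, the IkB proteins, so that the dimers can switch on genes in the nucleus. In a healthy brain most of these genes are expressed at low levels, and microglia, the resident macrophages, account for many of the receptors.

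The authors' deposited table gives 1 FPKM per group (fragments per kilobase of transcript and of library size, a level corrected for transcript length), with a fold, a p and a q. No column holds the value of a single library, so the spread between animals cannot be shown and the depth per library is unknown. A row is said to have risen or fallen where the authors' q was under 0.05, and higher or lower means antibiotic against control. The authors' own yes or no mark of significance is stricter. Among the members called here it is yes only for those that also differed at least 2-fold, 4 higher and 14 lower. Called members under 2-fold, such as CXCL14, TLR1/TLR6, TLR4, RELA and NFKB2, are marked no. The smallest q in the table, 0.000336, is shared by every row at the lowest p and does not rank them. The tissue label was set against 15 hypothalamic marker genes, of which 13 had a row. Among these OXT, which encodes oxytocin, stood at 310 FPKM in control and 96.8 after antibiotic, and AVP, which encodes vasopressin, at 211 and 181 in the authors' table. PMCH, which encodes melanin-concentrating hormone of the lateral hypothalamus, fell 15.1-fold from 282 to 18.6 FPKM (q = 0.000336), and the transcription factor FEZF1 7.72-fold from 3.19 to 0.413 (q = 0.000625, authors' table). SIM1, OTP and GHRH were not tested and were lower as well, OTP at 1.33 and 0.756 FPKM and the others under 1 FPKM in both groups. NKX2-1 and RAX had no matched row. In the other direction AGRP stood at 0.211 and 3.09 FPKM (q = 0.302) and POMC at 2.55 and 4.34 (q = 0.0938), and neither passed. HCRT at 13.2 and 11.5 FPKM and TRH at 7.03 and 6.92 did not pass either. Of the 10 tested hypothalamic markers 8 thus had the lower value and 2 the higher value in the antibiotic group. Whether the groups hold the same regions of the hypothalamus was not tested.

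Of the 103 tested members 14 rose and 27 fell, and the other 62 did not pass. That is 13.6% higher and 26.2% lower, beside 19.0% and 22.2% of all 13352 rows the authors tested. In total 39.8% of the members were called, and 41.1% of all tested rows. The median log2 difference over the tested members was -0.19, and over all tested rows it was -0.03. The overall share of calls among the members was thus close to the background. The counts by role were as follows. Of 26 tested ligands 11 fell and 1 rose (median log2 -0.66), of 36 tested receptors 8 fell and 2 rose (median -0.30), and of 36 tested signalling genes 8 fell and 9 rose (median 0.07). Another 5 tested members have names that begin like these families but another function or an unsettled identity, and 2 of these rose. The difference between roles was not tested, because no value per library is at hand.

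**Figure D1:**
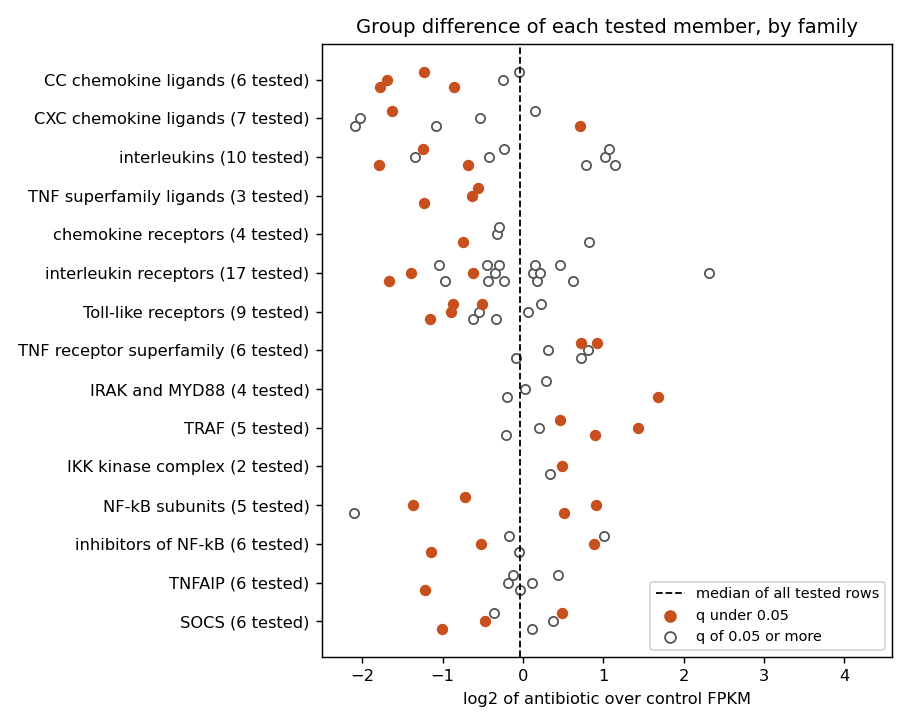
Log2 of antibiotic over control FPKM (x axis) for tested members in 15 families (rows, with the number tested), where filled points have an authors' q under 0.05, open points do not, and the dashed line is the median of all tested rows (-0.03). Called CC chemokine, interleukin, TNF ligand and Toll-like receptor rows lie left of 0, called TRAF, IKK and IRAK rows lie right of 0, and NF-kB subunits and inhibitors have called rows on both sides.

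CC chemokines attract monocytes, T cells and other leukocytes, and all 4 that passed the test were lower in the antibiotic group. That is 4 of 6 tested rows, beside 22.2% lower and 19.0% higher over all tested rows. CCL2, the main attractant of monocytes, stood at 12.5 FPKM in control and 3.63 after antibiotic in the authors' table (3.44-fold lower, q = 0.000336). CCL8, a close relative of CCL2, stood at 12.2 and 3.78 FPKM there (3.22-fold lower, with the same q). CCL5, an attractant of T cells, was the most abundant of the family and stood at 34.2 and 14.5 FPKM (2.35-fold lower, with the same q, authors' table). CCL23 went from 12.8 to 7.04 FPKM in the authors' table (1.82-fold lower, q = 0.0107). The other 2 tested members of the family, the lymphoid chemokine CCL19 at 2.31 and 2.24 FPKM and the thymic chemokine CCL25 at 11.8 and 9.91, did not pass (q = 0.949 and 0.532, authors' table). The remaining 10 rows of the family were not tested by the authors. In bulk tissue, fewer cells that make a chemokine and less of its RNA per cell cannot be told apart.

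Of the 16 CC chemokine rows 9 lie within 1467 kb of chromosome 12, between 41048661 and 42516128 in the coordinates of the authors' table. Only 4 of these 9 were tested, and these are the 4 that fell. CCL19 and CCL25, which were tested and did not pass, lie on other chromosomes. The untested rows of this stretch were low. CCL11, an attractant of eosinophils, stood at 3.01 FPKM in control and 0.169 after antibiotic, CCL4 at 4.17 and 3.70, and CCL3L1 at 0.989 and 0.549. CCL1 stood at 0.126 and 0.175 FPKM, and CCL16 was listed at 0 in control and at 0.151 in antibiotic. Between the chemokines lie 15 other rows, of which 13 were tested, 1 fell (TAF15, which encodes an RNA-binding protein) and 2 rose, with a median log2 of 0.30. Over all tested rows 22.2% fell and 19.0% rose. The test of a difference between chemokine rows and their neighbours would need values per library and was not run.

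**Figure D2:**
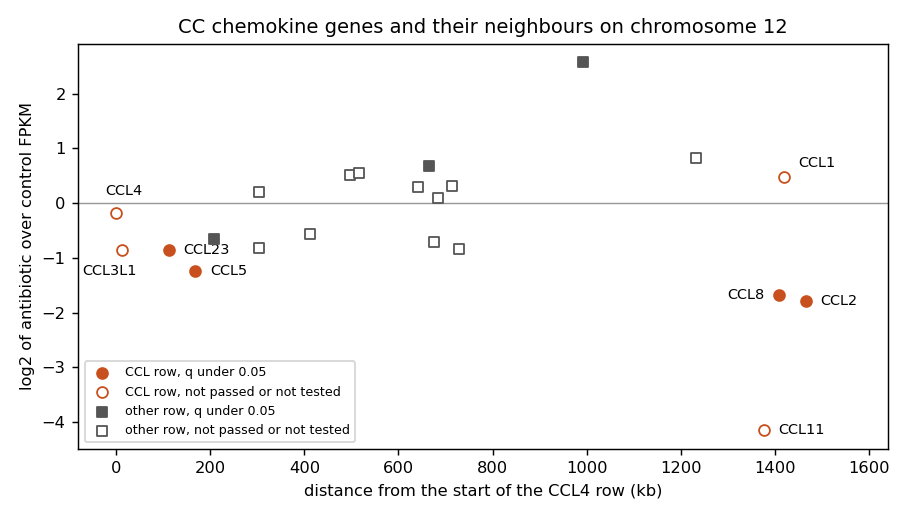
Log2 of antibiotic over control FPKM (y axis) for rows on chromosome 12 by their distance in kb from the start of the CCL4 row (x axis), with CC chemokines as circles, other rows as squares, and filled symbols for an authors' q under 0.05. CCL23, CCL5, CCL8 and CCL2 are filled and lie between -0.86 and -1.78, while the filled neighbours are TAF15 below 0 and a pair of unnamed rows above 0. Rows listed at 0 in a group are not drawn.

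CXC chemokines went both ways, with 1 fall and 1 rise among 7 tested rows, beside 22.2% lower and 19.0% higher over all tested rows. CXCL10, which is induced by interferon and attracts activated T cells, stood at 62.5 FPKM in control and 20.3 after antibiotic in the authors' table (3.08-fold lower, q = 0.000336). CXCL14, which is expressed at a steady level in many tissues including the brain, had the highest mean of both groups among the 103 tested members and was the 1 ligand that rose. It went from 65.5 to 107 FPKM in the authors' table (1.64-fold higher, q = 0.000625). CXCL9 and CXCL11, which share the receptor CXCR3 with CXCL10, stood at 1.46 and 2.20 FPKM in control and at 0.692 and 0.540 after antibiotic (q = 0.0733 and 0.289, authors' table), so neither passed. CXCL10, CXCL11 and ART3 are listed under the same locus, and reads from a shared stretch could not be assigned from the table. CXCL16 at 24.7 and 17.1 FPKM (q = 0.0588), CXCL12 at 10.2 and 11.3 (q = 0.775) and CXCL2 at 0.877 and 0.206 (q = 0.142) did not pass by the authors' q. CXCL8, the neutrophil attractant, was not tested and stood at 0.194 and 0.110 FPKM.

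Among interleukins 3 of 10 tested rows fell and none rose at a q under 0.05, beside 22.2% lower and 19.0% higher over all tested rows. The 3 were IL1B, IL18 and a row of IL17D, and the first pair encode cytokines that are activated by caspase-1 cleavage. IL1B, a central fever-inducing cytokine, stood at 1.68 FPKM in control and 0.486 after antibiotic in the authors' table (3.46-fold lower, q = 0.0101). IL18 went from 8.09 to 3.43 FPKM there (2.36-fold lower, q = 0.00162). CASP1, which encodes caspase-1 and is no member, fell as well, from 15.0 to 7.11 FPKM (q = 0.000336, authors' table). It was the 1 fall among the 15 tested genes of its list, given below. In that list NLRP3 stood at 1.87 and 2.49 FPKM (q = 0.191) and did not pass. A common change of these genes was not tested. IL17D, a cytokine of the IL-17 family, has a pair of rows at the same locus in the authors' table. The more abundant row went down from 5.57 to 3.45 FPKM (q = 0.0234), and the lesser one stood at 0.542 and 1.20 (q = 0.0574), in the opposite direction.

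Most other interleukins were low or did not pass. IL34, which sustains microglia through the receptor CSF1R, was the most abundant interleukin and stood at 70.8 FPKM in control and 53.0 after antibiotic (q = 0.162, authors' table). IL33, an alarm cytokine that glia make in the rodent brain, stood at 9.97 and 8.49 FPKM (q = 0.510). The anti-inflammatory IL10 stood at 0.907 and 0.358 FPKM (q = 0.104), IL17B at 1.36 and 2.76 (q = 0.162) and IL25 at 0.724 and 1.25 (q = 0.510) in the authors' table. A row named for the decoy IL18BP stood at 1.43 and 3.02 FPKM (q = 0.525). Its name is uncertain, as its ID belongs to RNF121 in the gene name table. It also overlaps the NUMA1 row, at 15.6 and 25.2 FPKM (q = 0.00613, authors' table). TNF itself, named TNFA in the table, was not tested and stood at 0.449 and 0.312 FPKM, and IL1A at 0.546 and 0.329. No member row carried the name IL6 or SOCS3, which are not analysed here. The 3 tested ligands of the TNF superfamily all fell in the authors' table, where 22.2% of all tested rows fell. TNFSF13B, a survival factor of B cells, went from 1.44 to 0.610 FPKM (q = 0.0192), TNFSF15 from 4.50 to 2.90 (q = 0.0104) and TNFSF10, the death ligand TRAIL, from 8.60 to 5.86 (q = 0.0167). The ID of the TNFSF10 row belongs to GHSR in the gene name table, so this name is uncertain.

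**Figure D3:**
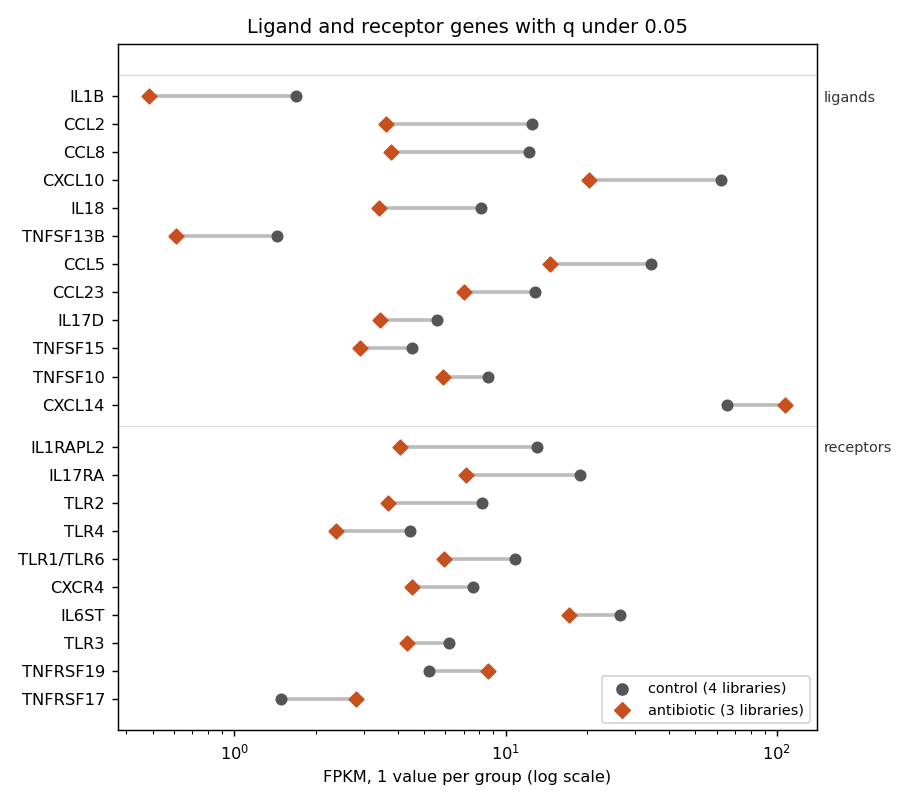
FPKM on a log axis (x) in control (circles) and antibiotic (diamonds) for the 12 ligand and 10 receptor rows with an authors' q under 0.05, each with 1 value per group and no error bar. Diamonds lie left of the circles except for CXCL14, TNFRSF19 and TNFRSF17.

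Of the Toll-like receptors 4 of 9 tested rows fell and none rose at a q under 0.05, beside 22.2% lower and 19.0% higher over all tested rows. TLR2, which recognises bacterial lipoproteins, stood at 8.21 FPKM in control and 3.67 after antibiotic in the authors' table (2.23-fold lower, q = 0.000336). Its partners TLR1 and TLR6, merged into 1 row there, went from 10.8 to 5.93 FPKM (1.83-fold lower, with the same q). TLR4, the receptor for lipopolysaccharide of Gram-negative bacteria, went from 4.44 to 2.38 FPKM (1.87-fold lower, q = 0.00207, authors' table). TLR3, which senses double-stranded RNA, went from 6.18 to 4.34 FPKM (q = 0.0498), just under the threshold in that table. TLR9, a sensor of bacterial DNA, stood at 6.55 and 7.69 FPKM (q = 0.343), TLR7 at 1.22 and 0.792 (q = 0.0563) and TLR10 at 1.12 and 0.770 (q = 0.184) in the authors' table. TLR5, the flagellin receptor, has a pair of rows, and neither passed (q = 0.661 and 0.906, authors' table). TLR8 was not tested.

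The TLR2 and TLR1/TLR6 rows overlap unnamed rows with large values of their own. The row over TLR2 stood at 82.2 FPKM in control and 8.80 after antibiotic (q = 0.0895, authors' table), and the row over TLR1/TLR6 was listed at 0 in control and at 22.2 in antibiotic and was not tested. TLR4 and TLR3 overlap no other row. Partners of these receptors were counted from a list of 24 genes, of which 20 had a row and were tested. Of these, 7 fell, 4 rose and 9 did not pass by the authors' q (median log2 -0.19). That is 35% lower and 20% higher, beside 22.2% and 19.0% of all tested rows. LY96, the subunit through which TLR4 binds lipopolysaccharide, fell from 5.61 to 2.56 FPKM (q = 0.0122), while CD14, which hands lipopolysaccharide to it, stood at 20.6 and 18.0 (q = 0.453) in that table. The 4 of this list with the smallest q were TAB1, which rose from 7.19 to 17.5 FPKM, and PELI1, TAB2 and TAB3, which fell, for instance PELI1 from 20.1 to 9.98 FPKM in the authors' table. The TAB proteins join TRAF6 to its kinase MAP3K7, and PELI1 is a ubiquitin ligase that acts with the IRAK kinases.

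Receptors for chemokines and interleukins mostly did not pass. CXCR4, the receptor of CXCL12, fell from 7.57 to 4.51 FPKM (1.68-fold, q = 0.00797, authors' table). CCR1, a receptor of CCL5, stood at 2.99 FPKM in control and 2.39 after antibiotic (q = 0.270) in that table. The rows named CCR2, the receptor of CCL2, were not tested and reached at most 0.182 FPKM, and their ID belongs to CCR3 in the name table. Of 17 tested rows of interleukin receptors 3 fell (17.6%) and 14 did not pass by the authors' q, close to the 22.2% lower over all tested rows. IL6ST (gp130), the signalling chain shared by IL-6, LIF and CNTF, fell from 26.4 to 17.1 FPKM (1.54-fold, q = 0.00814). The alpha chain IL6R stood at 0.826 and 4.12 FPKM (q = 0.240), and the overlapping row whose ID the name table gives to IL6R stood at 2.74 and 2.41 (q = 0.505), in the opposite direction. IL17RA, the common chain of IL-17 receptors, fell 2.64-fold in 1 of its rows, from 18.9 to 7.16 FPKM (q = 0.00486), and a further row at this locus stood at 2.07 and 2.26 (q = 0.920). IL1RAPL2, a neuronal relative of the IL-1 receptor, fell from 13.02 to 4.09 FPKM in the authors' table (3.19-fold, q = 0.000336). IL1R1, the receptor of IL1B, stood at 1.92 and 1.42 FPKM there (q = 0.229).

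In the TNF receptor superfamily 2 of 6 tested rows rose and none fell at a q under 0.05, beside 19.0% higher and 22.2% lower over all tested rows. TNFRSF19, expressed in neural progenitors and glia of rodents, went from 5.21 to 8.58 FPKM in the authors' table (1.65-fold higher, q = 0.00699). TNFRSF17, a plasma cell receptor, has a pair of rows at the same locus, of which 1 stood at 1.49 and 2.82 FPKM (1.90-fold higher, q = 0.00714) and the other at 3.70 and 6.47 (q = 0.249). The most abundant receptors among the members were the death receptor TNFRSF21 at 38.6 and 48.0 FPKM (q = 0.125) and the main TNF receptor TNFRSF1A at 33.1 and 31.1 (q = 0.695, authors' table), and neither passed.

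Of the 11 tested MYD88, IRAK, TRAF and IKK rows, the adaptors and kinases between receptors and NF-kB, 5 rose and none fell at a q under 0.05, beside 19.0% higher and 22.2% lower over all tested rows. Relatives that the name rule did not take fell, namely the kinase IRAK2 from 14.3 to 9.10 FPKM (q = 0.00814) and the IKK kinase CHUK from 24.3 to 13.5 (q = 0.000891, authors' table). IRAK1, the kinase that MYD88 recruits, went from 4.26 FPKM in control to 13.6 in antibiotic in the authors' table (3.20-fold higher, q = 0.000336). MYD88 itself stood at 22.1 and 22.5 FPKM there (q = 0.924), and IRAK4, which activates IRAK1, at 4.72 and 4.12 (q = 0.666). TRAF2, an adaptor of TNF receptors, went from 2.93 to 7.92 FPKM (2.70-fold higher, q = 0.000336), TRAF4 from 4.43 to 8.23 (1.86-fold, q = 0.00410) and TRAF3, which restrains the alternative NF-kB pathway, from 5.71 to 7.84 (1.37-fold, q = 0.0392, authors' table). TRAF6 at 4.38 and 5.04 FPKM (q = 0.655) and TRAF5 at 1.07 and 0.931 (q = 0.668) did not pass there. IKBKB, the kinase that marks IkB for destruction, went from 8.63 to 12.1 FPKM (1.40-fold higher, q = 0.0339), and its scaffold IKBKG stood at 6.88 and 8.69 (q = 0.332, authors' table). IRAK1BP1, which binds IRAK1, fell from 4.38 to 2.81 FPKM (q = 0.0453).

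The NF-kB subunits split, with 2 rises and 2 falls among 5 tested rows, beside 19.0% higher and 22.2% lower over all tested rows. RELA, the subunit that carries most of the activating capacity, stood at 20.5 FPKM in control and 29.1 after antibiotic in the authors' table (1.42-fold higher, q = 0.0175). NFKB2, the precursor of the alternative pathway, stood at 7.24 and 13.6 FPKM (1.88-fold higher, q = 0.000336). REL, prominent in lymphocytes, stood at 1.05 and 0.637 FPKM (1.65-fold lower, q = 0.0243, authors' table). NFKB1, the usual partner of RELA, has a pair of short rows on chromosome 8 that share 1 ID but do not touch. The row from 127365562 to 127369995 fell from 16.2 to 6.28 FPKM (2.57-fold, q = 0.00229), and that from 127655428 to 127664001 stood at 123 and 28.7 FPKM (q = 0.125, authors' table). Both NFKB1 rows were lower in the antibiotic group, and only the less abundant one passed. No row was named RELB.

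The inhibitors split as well, with 1 rise and 2 falls among 6 tested rows, beside 19.0% higher and 22.2% lower over all tested rows. NFKBIA, which NF-kB itself induces, fell from 17.3 to 12.04 FPKM (1.44-fold, q = 0.0221, authors' table), and NFKBID, a nuclear IkB protein, from 5.63 to 2.55 (2.21-fold, q = 0.000336). The NFKBID row overlaps that of HCST, an adaptor of NK cell receptors, at 5.998 and 4.495 FPKM (q = 0.648). NFKBIE rose from 4.77 to 8.85 FPKM there (1.85-fold, q = 0.00138). NFKBIB at 42.8 and 41.3 FPKM (q = 0.835), NFKBIZ at 2.07 and 1.84 (q = 0.609) and NFKBIL1 at 4.62 and 9.25 (q = 0.315) did not pass. TNFAIP3 (A20), a feedback enzyme that NF-kB induces, stood at 1.30 and 1.41 FPKM (q = 0.739, authors' table). Of the 6 tested TNFAIP rows 1 fell (16.7%) and none rose, beside the 22.2% lower and 19.0% higher over all tested rows. It was TNFAIP8, which acts against cell death, from 11.7 to 5.03 FPKM (2.33-fold, q = 0.000336).

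SOCS proteins end cytokine signals. Among their 6 tested rows 2 fell and 1 rose, beside 22.2% lower and 19.0% higher over all tested rows. SOCS4 fell from 10.5 to 5.21 FPKM (2.02-fold, q = 0.00114) and SOCS5 from 18.9 to 13.6 (1.39-fold, q = 0.0334), while SOCS7 rose from 3.37 to 4.70 (1.40-fold, q = 0.0353, authors' table). The cytokine-induced SOCS1 stood at 0.950 and 1.24 FPKM (q = 0.615), and SOCS2 at 2.27 and 2.45 (q = 0.775). The ID of the SOCS2 row belongs to CRADD in the name table.

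**Figure D4:**
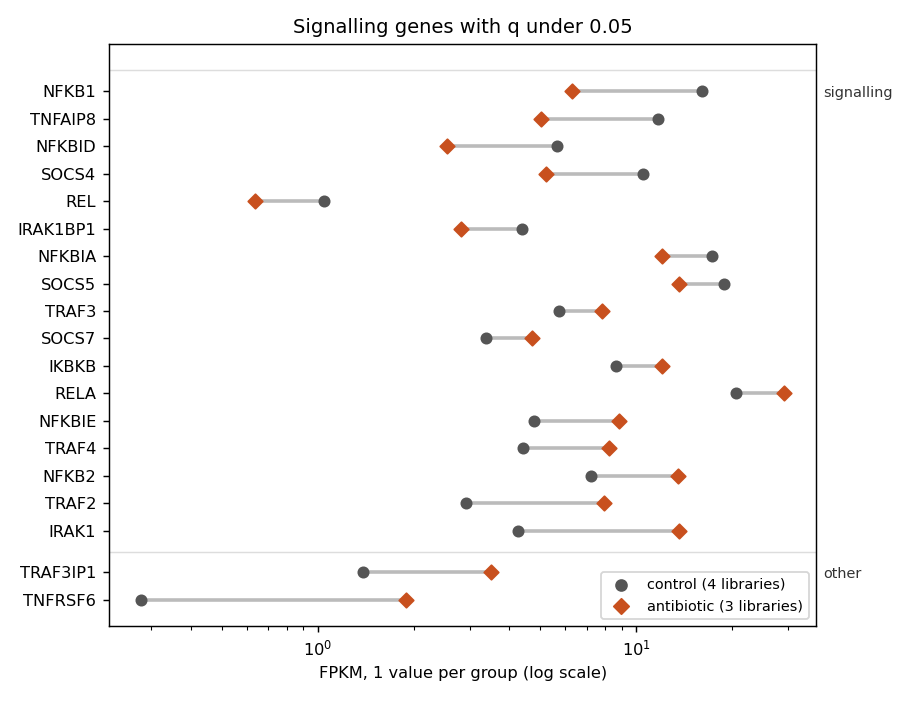
FPKM on a log axis (x) in control (circles) and antibiotic (diamonds) for the 17 signalling rows with an authors' q under 0.05 and, below, the 2 called rows that were given none of these roles (TRAF3IP1 and TNFRSF6), each with 1 value per group and no error bar. NFKB1, TNFAIP8, NFKBID, SOCS4, REL, IRAK1BP1, NFKBIA and SOCS5 lie lower in antibiotic and the other 9 signalling rows higher.

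Other genes of the pathways were counted from lists. Each count of a pathway or marker list below stands beside 22.2% lower and 19.0% higher over all tested rows. Of 24 tested NF-kB partners 9 fell, 3 rose and 12 did not pass by the authors' q (median log2 -0.46). RIPK2, the kinase of the bacterial sensors NOD1 and NOD2, fell from 70.3 to 29.1 FPKM (q = 0.000336), in a row merged with an unnamed gene. CYLD, which removes ubiquitin, fell from 19.0 to 11.0 FPKM (q = 0.000625). A row named BIRC2, a ubiquitin ligase, fell from 15.4 to 8.95 FPKM (q = 0.000336). The related BIRC3 was matched to that same row by its ID, so which of these genes it measures is uncertain. CHUK, the IKK-alpha kinase given above, fell too. CHUK was thus lower while its partner IKBKB was higher. MAP3K14, the kinase that starts the alternative pathway, RNF31 and TNIP2 rose, MAP3K14 from 1.33 to 2.71 FPKM (q = 0.0108, authors' table). The rows of CHUK, MAP3K14 and TNIP2 each overlap another row.

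The JAK-STAT list, through which most interleukins signal, had 2 falls, no rise and 16 of 18 tested genes that did not pass by the authors' q (median log2 -0.05). JAK2 fell from 3.89 to 2.31 FPKM (q = 0.0474), while JAK3 at 20.2 and 14.1 (q = 0.0539) and STAT2 at 14.7 and 18.9 (q = 0.0975) did not pass. Of 15 tested inflammatory genes that NF-kB induces, 1 (CASP1) fell, 1 (CEBPD, from 3.84 to 7.58 FPKM, q = 0.00944) rose and 13 did not pass (median log2 0.13). Among those 13 were CFB at 8.76 and 6.29 FPKM (q = 0.0518), VCAM1 at 50.6 and 43.5 (q = 0.279) and PTGS2 at 0.589 and 0.929 (q = 0.131, authors' table).

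Cytokines and receptors outside the name rule were listed separately. Of 13 tested ligands 4 rose, 1 fell and 8 did not pass (median log2 0.60), against the 1 rise and 11 falls among member ligands, and this contrast was not tested. TGFB2, a growth-restraining cytokine, rose from 15.3 to 55.8 FPKM (q = 0.000336), CX3CL1, which neurons present to microglia, from 30.2 to 49.3 (q = 0.00114), and MIF from 440 to 668 (q = 0.00138, authors' table). TGFB1 rose too, and FAM3C fell from 45.7 to 22.2 FPKM (q = 0.000336). Of 17 tested receptors outside the rule 3 rose, 3 fell and 11 did not pass (median log2 -0.07). CX3CR1, the microglial receptor of CX3CL1, fell from 90.5 to 49.8 FPKM, and IFNGR1 from 68.0 to 42.1 (q = 0.000336 and 0.000891). TGFBR2 rose from 11.8 to 28.1 FPKM and CNTFR from 33.7 to 57.4, both with q = 0.000336 in the authors' table. CSF1R, the receptor of IL34, stood at 59.2 and 50.8 FPKM there (q = 0.299).

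The pathway annotation (KEGG) that the authors' table carries gives a further view of members beside other genes of the same pathway. In its Toll-like receptor pathway 6 of 13 tested members fell and 2 rose, and of 23 other tested rows 5 fell and 5 rose. In cytokine-cytokine receptor interaction 10 of 26 tested members fell and 2 rose, and of 24 other rows 3 fell and 4 rose. In chemokine signalling 5 of 14 tested members fell and 1 rose, and of 35 other rows 7 fell and 12 rose. In the NF-kB pathway 2 of 11 tested members fell and 3 rose, and of 26 other rows 6 fell and 4 rose. In the TNF pathway 4 of 10 tested members fell and 2 rose, and of 30 other rows 7 fell and 5 rose. In Jak-STAT signalling 3 of 10 tested members fell and 1 rose, and of 26 other rows 2 fell and 3 rose. Over all tested rows 22.2% fell and 19.0% rose. A gene can stand in several of these pathways, and members were not tested against the others.

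**Figure D5:**
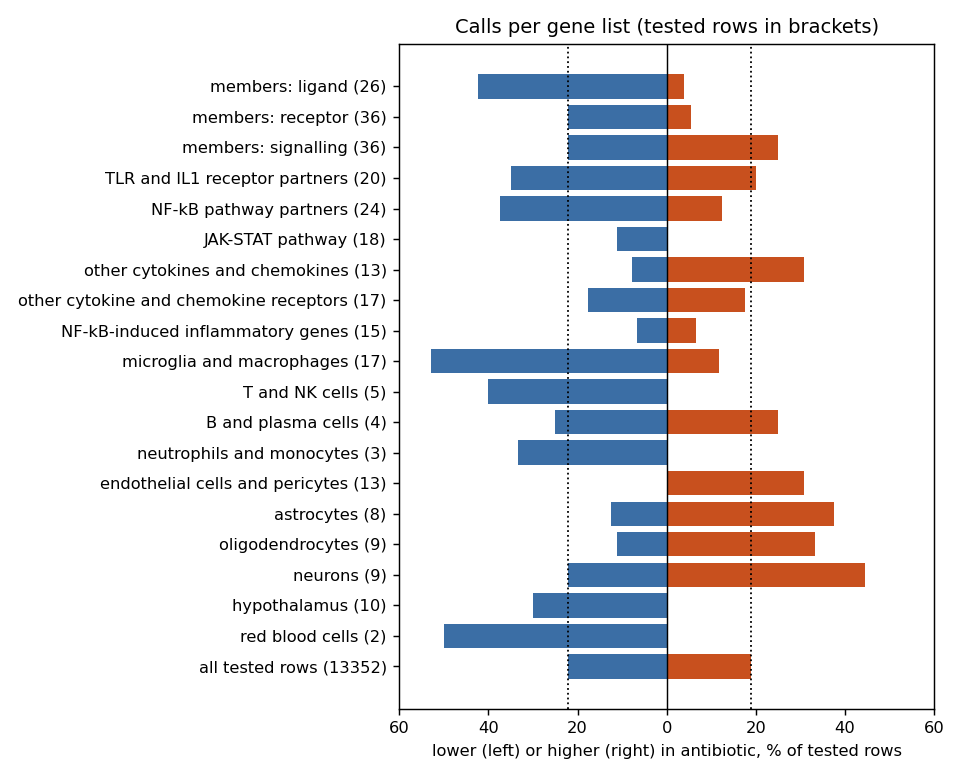
Percent of tested rows with an authors' q under 0.05 that were lower (blue, left) or higher (orange, right) in the antibiotic group, for the members by role, the pathway lists and the cell type marker lists, with the number of tested rows in brackets and dotted lines at the shares of all tested rows (22.2% and 19.0%). Ligands have 42.3% lower and 3.85% higher.

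Markers of other cell types moved beside these genes, and their part in the results above was not tested. Of 17 tested microglia and macrophage markers 9 fell, 2 (TREM2 and SPI1) rose and 6 did not pass by the authors' q. Over all tested rows 22.2% were lower and 19.0% higher. The 18 microglia and macrophage rows summed to 860 FPKM in control and 555 after antibiotic. P2RY13 fell from 7.06 to 2.52 FPKM, C1QA from 132 to 48.5 and P2RY12 from 99.97 to 43.5, while TREM2 rose from 4.58 to 15.7 (each q = 0.000336). HBB, the beta chain of haemoglobin, fell from 5400 to 386 FPKM (q = 0.000336) and made up nearly all of a red blood cell list with 3 matched rows of 7 genes, which summed to 5403 and 389 FPKM. The other tested gene of that list, ALAS2, stood at 3.36 and 3.09 FPKM (q = 0.814, authors' table).

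Markers of T and NK cells summed to 63.5 FPKM in control and 63.4 after antibiotic over 14 rows, of which 10 were under 1 FPKM in both groups, among them CD3D, CD3G, CD8A and LCK. Of 5 tested ones CD2 fell from 11.0 to 3.20 FPKM (q = 0.000336) and NKG7 from 3.92 to 2.21 (q = 0.0460), and CD4 at 0.269 and 0.906 (q = 0.142), CD247 at 43.3 and 51.9 (q = 0.333) and CD3E did not pass. CD247 thus made up most of that sum. The neutrophil and monocyte list summed to 47.3 and 40.1 FPKM over 8 rows, with S100A8, S100A9 and MPO listed at 0 in control, and of 3 tested genes LYZ fell from 7.03 to 4.65 FPKM (q = 0.0480, authors' table). The B and plasma cell list summed to 57.8 and 42.4 FPKM over 6 rows, where BLNK fell and PAX5 rose among 4 tested, and JCHAIN at 44.1 and 32.6 FPKM (q = 0.0896) did not pass.

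Lists for brain cells other than microglia are given in turn. Endothelial and pericyte markers had 4 rises and no fall among 13 tested in the authors' table, with VWF from 4.06 to 16.6 FPKM and CLDN5 from 54.9 to 106 (both q = 0.000336), ESAM from 3.91 to 6.77 and FLT1 from 16.3 to 23.9, and summed to 181 and 246 FPKM. Of 8 tested astrocyte markers 3 (FGFR3, GFAP and SLC1A2) rose and AQP4 fell, and the list summed to 3566 and 6224 FPKM. Of 9 tested oligodendrocyte markers 3 (SOX10, CNP and MAG) rose and ERMN fell, with sums of 9658 and 11900.4 FPKM. Of 9 tested neuronal markers 4 (NEFM, TUBB3, SYP and NEFL) rose and 2 (SLC17A6 and STMN2) fell, with sums of 1227 and 1675 FPKM. Of 10 tested hypothalamic markers PMCH, OXT and FEZF1 fell and 7 did not pass, with sums of 872 and 352 FPKM.

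Locus length is given beside the calls, and its part in them was not tested. The median locus was 9911 bases for the 14 members that rose, 13284 for the 27 that fell and 24469 for the 62 that did not pass. Over all tested rows these medians were 21461 for rises, 33553 for falls and 32792 for the rest. Of 20 tested members with a locus of up to 5000 bases 7 fell and 3 rose, and of 25 with a locus over 50000 bases 6 fell and 2 rose. Over all tested rows with a locus of up to 5000 bases, 284 of 1326 fell and 257 rose. Above 50000 bases, 1095 of 4683 fell and 601 rose.

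Some names of rows were uncertain. Of the 163 IDs 116 had a symbol in the gene name table, and 9 of these symbols were not the row's name. A row named TNFRSF6 on chromosome 2, from 1563458 to 1567863, rose from 0.279 to 1.89 FPKM (6.77-fold, q = 0.00138), the largest rise among the called members in the authors' table. TNFRSF6 is an older name of the death receptor FAS, but RefSeq's pig table lists it as a synonym of FADD, and both FAS and FADD have rows of their own, neither of which passed (q = 0.940 and 0.288). TRAF3IP1, a protein of cilium transport, rose from 1.39 to 3.51 FPKM (q = 0.0254) in 1 row and stood at 5.37 and 7.23 (q = 0.0801) in the other. IL4I1, an amino acid oxidase, stood at 3.52 and 3.34 (q = 0.852, authors' table).

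The name rule also missed 12 rows that the gene name table assigns to these families, of which 8 were tested. TRAF7 rose from 0.306 to 1.19 FPKM (q = 0.00371) and TRAF1 from 1.58 to 3.30 (q = 0.00729) in the authors' table. IRAK2, given above, fell. IL11RA at 14.8 and 20.4 FPKM (q = 0.0845), IKBKE at 0.499 and 1.04 (q = 0.0859) and IL16 at 0.626 and 1.02 (q = 0.186) did not pass there.

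The 60 untested members were low in both groups. Their highest value was the 4.17 FPKM of CCL4 in control, and 2 of the 60 rows (CCL4 and CCL11) were above 1 FPKM in a group. In 26 of them the antibiotic value was the lower one and in 34 the higher, and 15 were listed at 0 in control and 5 after antibiotic. They include the genes of IL12A, IL12B, IL7, IL15, IL21, CCL20, CXCL13, CCR7, CXCR3, IL2RA and IL7R. A group difference of these genes was not detectable with these values, which does not show that it is absent.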

How the data were processed

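RNA-seq libraries had been made from 1 ug of total RNA of 4 control and 3 antibiotic hypothalami with an Illumina TruSeq RNA kit, per the labels' protocols. Per the submitters' processing notes, Bowtie 0.12.2 was among the tools, and susScr3 (pig) and mm8 (mouse) appear there as builds with no stated use. Annotation, strand setting, library scaling and test program were not given in the sources used here. Per the file headers, the deposited table holds FPKM per group, the log2 fold of antibiotic over control, a p-value and a q-value. It also holds a test score and the authors' yes or no mark of significance, which did not set the calls. Coordinates are those of the table, whose build it does not name, and a locus can cover several rows. After 6 blank rows were left out, 16991 rows remained. The table has 0 columns for single libraries, so neither depth, replicate error, the planned limma test nor any fit over libraries could be had, and the authors' q was used as deposited, at a threshold of 0.05. How the libraries entered that test is not known.

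Members were matched by name and sorted by role. The members, lists and rules were chosen with earlier results of these data known. Genes of 16 lists were matched by name, otherwise by ID through the gene name table, taking the tested row with the highest level. Named were all called members, key cytokines and abundant members whatever their values, and up to 4 genes with the smallest q per list. Medians, counts and scalings (upper quartile, trimmed mean with 30% of folds and 5% of levels trimmed at each end, quantile normalization) were computed with Python 3.11.15, pandas 2.3.3 and numpy 2.4.6, after the scalings had been tested on simulated data. Alternatives also used a q of 0.01, a 2-fold minimum, minimum levels of 1 and 5 FPKM, pseudocounts of 0.1 and 1, and other choices of rows. No sequence is shown, as the reference tables used here hold none. Some genes among the members and lists are counted but not reported here by name.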

Additional observations from a re-analysis of the deposited data

How the results depend on the processing

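The calls are the authors' q, which no scaling or pseudocount recomputes, so these settings bear on the size of a difference and not on the calls. The median log2 of -0.19 lay between -0.11 (upper quartile scaling) and -0.23 (only rows reaching 5 FPKM) over the alternatives run, and scalings and pseudocounts moved the median of all tested rows by at most 0.08. With a q under 0.01 there were 9 higher and 16 lower members, 5 lower ligands, 5 higher and 4 lower signalling genes, and 9 higher and 14 lower genes in the pathway lists together (15 and 23 at 0.05). With a 2-fold minimum beside the q of 0.05 there were 4 higher and 14 lower members, the same rows that the authors marked as significant. At a minimum of 5 FPKM in a group 1 receptor was higher instead of 2. Leaving out rows that overlap another gave 13 higher and 21 lower, 1 row per name gave 12 and 26, and, chosen after seeing the data, leaving out doubtful names gave 13 and 26 and adding the 12 rows outside the rule gave 16 and 28.

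No paired analysis was possible because the table holds 1 value per group and none per library. For the same reason leaving out single libraries, the limma test and its alternatives were not run. Whether the authors' q holds replicate error is not known, and no other value used here holds it. Precision at low FPKM is unknown.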
